A study of Mus musculus with 22 samples.

Results

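Glucose sensing in the pancreatic beta cell rests on a short chain of proteins, and 8 genes of that chain were followed here across the islets of 22 male mice. The members were the rows of the deposited table whose gene symbol was Slc2a2, G6pc2, Pcx, Gpd2, Pfkm, Glud1, Kcnj11 or Abcc8, 8 of the 57010 rows. Each symbol occurred once, and all 8 were among the 16756 genes kept by the filter on low values, which asked for 1 TPM or more in 5 or more samples. TPM is a length-corrected transcript abundance in which every library sums to the same total.

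The series profiled polyadenylated RNA of isolated islets, 1 animal per library, at 5.5 weeks of age by the series' design text and at 5 to 6 weeks by the column headers of the table. On the C57 background there were 5 WT and 6 Het animals, and on the Mixed background there were again 5 WT and 6 Het animals. WT animals carried wild-type MafA, and Het animals carried the S64F change of MafA on 1 allele, per the labels. MAFA is a transcription factor of mature beta cells. C57 and Mixed are the labels' names of the genetic backgrounds, and the labels do not name the strains of the Mixed background. Library numbers followed the groups in order, so library order and group cannot be told apart.

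In the beta cell, glucose enters through a transporter of the plasma membrane and is phosphorylated and broken down to pyruvate. Pyruvate feeds the mitochondria both by oxidation and by carboxylation, and shuttles carry the reducing power of glycolysis across the mitochondrial membrane. The ATP made in this way closes the ATP-sensitive potassium (KATP) channel, the membrane depolarises, calcium enters and insulin is released. Slc2a2 encodes the glucose transporter GLUT2, G6pc2 the islet glucose-6-phosphatase that returns glucose-6-phosphate to glucose, and Pfkm the muscle-type subunit of phosphofructokinase. Gpd2 encodes the mitochondrial glycerol-3-phosphate dehydrogenase of the glycerol phosphate shuttle, Pcx pyruvate carboxylase, and Glud1 glutamate dehydrogenase. Kcnj11 encodes Kir6.2, the pore of the KATP channel, and Abcc8 encodes SUR1, its regulatory subunit and the target of sulfonylureas.

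The RNA was that of islets by its markers, and it was mixed. The hormone and beta cell genes Ins1, Ins2, Iapp, Pdx1, Nkx6-1, Ucn3, Slc30a8 and Ero1b summed to 369957 to 449130 TPM in C57 WT and 323353 to 377784 TPM in C57 Het. In Mixed WT they summed to 400369 to 477355 TPM and in Mixed Het to 249469 to 340935 TPM. The alpha cell genes Gcg, Irx2 and Ttr summed to 19043 to 57360.1 TPM in C57 WT and 71310.5 to 117362 TPM in C57 Het. Their sum was 15807 to 27517 TPM in Mixed WT and 65336 to 107151 TPM in Mixed Het. The alpha sums of Het and WT did not overlap on either background, and the beta sums did not overlap in Mixed. In the limma fit described under processing, 3 of the 3 alpha genes and 3 of the 3 delta genes (Sst, Hhex, Rbp4) were higher in Het on both backgrounds. Beside these and the counts below, 26.4% of all genes tested were higher in C57 and 11.6% lower. In Mixed 30.7% were higher and 13.5% lower, and 4.62% had a positive interaction. Counts of 1 gene in a list are near or below these shares. Of the 8 beta genes, 0 were higher and 1 was lower in C57 (median log2 change -0.19), and 0 were higher and 5 were lower in Mixed (median -0.49). Of the 8 acinar genes tested, 8 were higher in C57 (median 1.22) and 1 in Mixed (median 0.89). An interaction of genotype and background passed for 0 of these 8 genes. Of the 5 mesenchymal genes tested, 0 were higher in C57 and 4 in Mixed. Of the 5 ductal genes tested, 1 was higher in C57 and 4 in Mixed. The immune list went opposite ways by background, with 2 of the 5 genes tested lower in C57 and 5 higher in Mixed, and a positive interaction for 4. Immune sums were 207 to 266 TPM in C57 WT and 118 to 180 TPM in C57 Het, and 95.9 to 134 TPM in Mixed WT and 152 to 328 TPM in Mixed Het, with no overlap of genotypes on either background. Of the 5 endothelial genes, 2 were lower in C57. No gene of the 10 marker lists was at 0 in every sample. In RNA of whole islets, fewer cells of a type and less RNA per cell cannot be told apart, and the part of the cell mixture in the differences below was not tested. Mafa itself, the mutated gene, averaged 441 ± 87.6 TPM (SD, n = 5) in WT against 117 ± 23.2 TPM (SD, n = 6) in Het on C57. On Mixed it averaged 598 ± 143 TPM (SD, n = 5) in WT against 152 ± 37.1 TPM (SD, n = 6) in Het. The gene-level value does not separate the alleles.

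The 8 genes spanned a wide range of levels, and the top of the order was the same in all 4 groups. G6pc2 stood first, at 2173 to 3191 TPM by group mean, and ranked 16 to 21 among the 16756 genes tested. Abcc8 came next, at 401 to 578 TPM, and then Slc2a2, at 187 to 352 TPM. These 3 genes were separated from each other, and from the next gene, in the values of every group. The lower 5 changed places with genotype. In C57 WT the order went on with Kcnj11, Pcx, Pfkm, Glud1 and Gpd2, where neither Kcnj11 and Pcx nor Pfkm and Glud1 were separated by their ranges. Mixed WT had Pcx, Kcnj11, Glud1, Pfkm and Gpd2, and there Pcx and Kcnj11, Kcnj11 and Glud1, and Glud1 and Pfkm overlapped. In C57 Het, Glud1 came right behind Kcnj11, and in Mixed Het right ahead of it, with overlapping ranges in both. Pcx dropped below Pfkm by mean in both Het groups, with overlapping ranges of these genes in C57 Het and separate ones in Mixed Het. It kept only Gpd2 beneath it, again with overlapping ranges of Pcx and Gpd2.

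**Figure D1:**
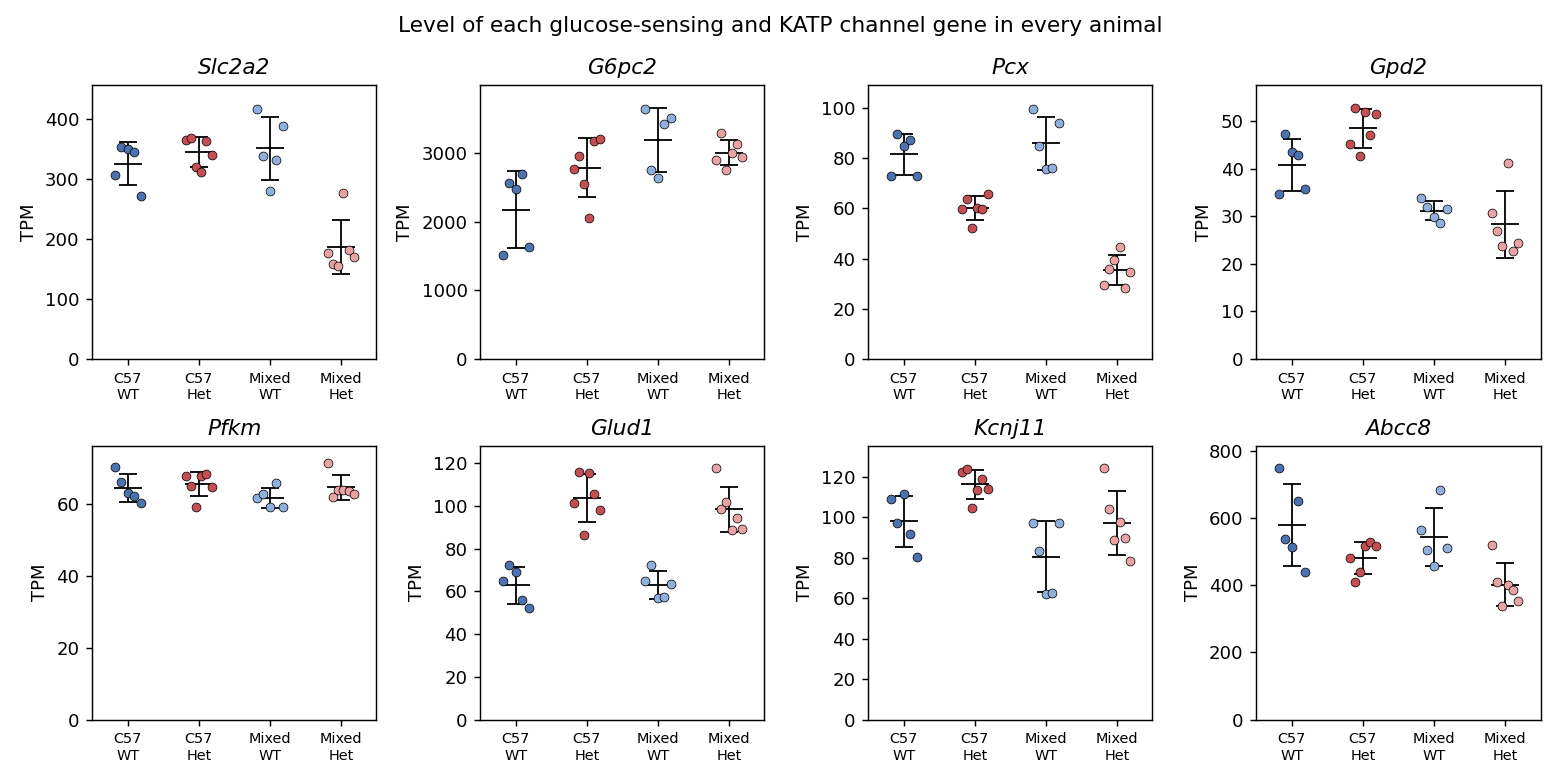
TPM of each of the 8 genes in every animal (points, 1 per mouse), by group on the horizontal axis, with the group mean and SD (bars); each vertical axis starts at 0 and has its own scale. Slc2a2 of Mixed Het lies at 156 to 277 TPM against 281 to 418 TPM in Mixed WT, Pcx is lower in Het on both backgrounds, and Glud1 is higher in Het on both.

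Between genotypes, 3 of the 8 members passed the adjusted p threshold of 0.05 in C57 (37.5%), where 38.0% of all genes tested did. In Mixed, 4 of the 8 passed (50.0%), against 44.1% of all genes. The shares of members are thus close to those of all genes on each background. The 2 calls in C57 that were higher (G6pc2 and Glud1) stood beside 26.4% of all genes, and the 1 that was lower (Pcx) beside 11.6%. In Mixed, 1 member was higher (Glud1) against 30.7% of all genes, and 3 were lower (Slc2a2, Pcx and Abcc8) against 13.5%. The median log2 change of the 8 was 0.17 in C57 and -0.12 in Mixed, and over all genes it was 0.08 and 0.10. Het and WT values did not overlap for 2 members in C57 (21.0% of all genes) and for 3 in Mixed (23.6%). The difference between the genotype differences, Mixed minus C57, passed for 2 of the 8 (25.0%), where 7.36% of all genes passed, and both were negative, as were 2.74% of all genes. None was positive, where 4.62% of all genes were. The 2 genes were Slc2a2 and Pcx.

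**Figure D2:**
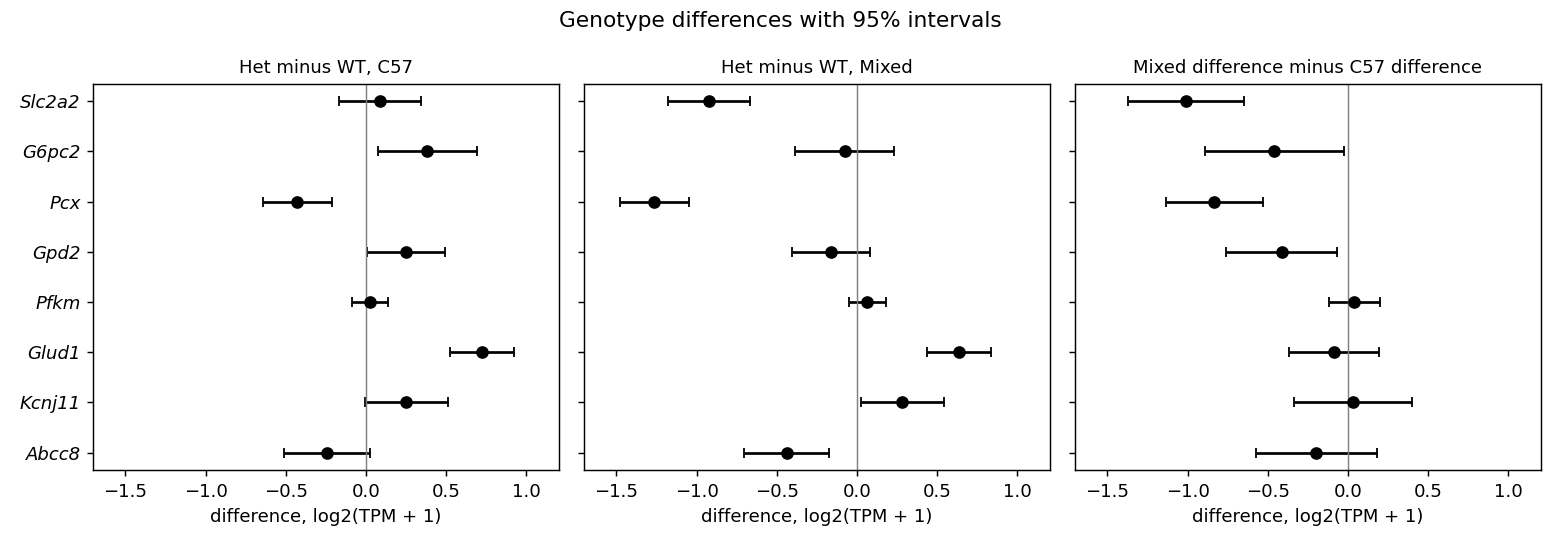
Differences of mean log2(TPM + 1) with 95% intervals from the limma fit (points and bars) for the 8 genes: Het minus WT in C57, Het minus WT in Mixed, and the second difference minus the first. Slc2a2 and Pcx have intervals of -1.37 to -0.65 and -1.14 to -0.53 in the right panel, and Glud1 lies above 0 in both genotype panels.

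Upstream sequences are shown for the genes whose genotype difference itself differed between backgrounds, Slc2a2 and Pcx, and for G6pc2, the one member with a match to the letters searched. They are RefSeq windows of build GRCm38.p6, 250 bases before the start, written 5′ to 3′ on the plus strand, on which all 3 genes lie. The build is not that of the deposited table, and gene-level TPM does not tell which start was used. RefSeq held 12 such windows for 6 of the members, and none for Kcnj11 and Abcc8 were used here. MAF proteins are known to bind elements built around the letters TGCTGA, and this word and its longer form TGCTGAC were searched on both strands, the shorter lying within the longer. Capitals mark TGCTGA or its reverse complement TCAGCA. Of all 32851 windows of this length, 16.1% held the shorter word and 3.81% the longer one. The Slc2a2 window lies at chr3:28697653-28697902, the Pcx windows at chr19:4510222-4510471 and chr19:4594069-4594318, and the G6pc2 window at chr2:69219699-69219948.
Slc2a2: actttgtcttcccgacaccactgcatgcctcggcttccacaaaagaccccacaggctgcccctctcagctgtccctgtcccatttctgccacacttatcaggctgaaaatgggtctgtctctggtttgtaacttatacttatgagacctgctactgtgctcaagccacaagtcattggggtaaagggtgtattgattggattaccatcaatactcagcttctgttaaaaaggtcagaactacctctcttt
Pcx, first start: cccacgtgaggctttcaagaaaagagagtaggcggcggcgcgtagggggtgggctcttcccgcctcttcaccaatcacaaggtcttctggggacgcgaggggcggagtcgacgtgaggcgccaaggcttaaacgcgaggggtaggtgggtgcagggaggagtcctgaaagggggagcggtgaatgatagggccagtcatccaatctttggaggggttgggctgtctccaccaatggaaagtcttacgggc
Pcx, second start: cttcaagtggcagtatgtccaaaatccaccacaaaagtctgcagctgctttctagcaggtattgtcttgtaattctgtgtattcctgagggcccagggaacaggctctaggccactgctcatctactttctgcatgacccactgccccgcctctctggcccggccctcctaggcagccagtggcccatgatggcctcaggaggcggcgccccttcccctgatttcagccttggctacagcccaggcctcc
G6pc2, second start: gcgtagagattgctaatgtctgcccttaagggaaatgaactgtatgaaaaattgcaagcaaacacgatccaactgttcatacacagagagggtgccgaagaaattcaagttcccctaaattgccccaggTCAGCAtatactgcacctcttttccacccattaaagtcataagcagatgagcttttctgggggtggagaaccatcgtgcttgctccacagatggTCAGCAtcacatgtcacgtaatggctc

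The G6pc2 window holds 2 matches, whose first bases lie at -121 and -27 from the start, and both are also matches to the longer word. The Slc2a2 window and both Pcx windows hold 0. The Slc2a2 window has a GC content of 47.2% and the Pcx windows have 60.8% and 58.0%. A match here is a description of letters, and the absence of one says nothing of a factor's binding elsewhere.

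Slc2a2, the transporter at the head of the chain, was lower in Het islets of the Mixed background and showed no called difference in C57. The C57 WT animals had 272, 307, 346, 351 and 354 TPM, and C57 Het had 313 TPM at the lowest, 352 at the median and 368 at the highest. The Mixed WT animals had 281, 332, 339, 388 and 418 TPM, and Mixed Het had 156 TPM at the lowest, 174 at the median and 277 at the highest. The C57 groups overlapped. Every Mixed Het animal lay below every Mixed WT animal, although Mixed Het replicate 4, at 277 TPM, came close to the lowest of them. The mean of Mixed Het was 53.2% of that of Mixed WT, and the log2 difference of -0.92 had an SE of 0.12 and an adjusted p of 4.38e-06. In C57 the log2 change was 0.09 (95% interval -0.17 to 0.34, adjusted p = 0.605), and it was between -0.03 and -0.02 under the 3 other scalings. The interaction of -1.01 (interval -1.37 to -0.65, adjusted p = 0.0027) passed under all 9 alternatives run on it and without any 1 of the 22 libraries.

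Other sugar transporters of the family were read as well. Slc2a1, which encodes GLUT1, had group means of 7.41 and 8.56 TPM in WT and Het of C57, and of 13.9 and 10.6 TPM in those of Mixed. It fell by 0.34 on the log2 scale in Mixed (adjusted p = 0.0274), a call lost without Mixed WT replicate 4 (-0.21, adjusted p = 0.118), Mixed WT replicate 2 (adjusted p = 0.0536) or Mixed Het replicate 4 (adjusted p = 0.0553). It was also lost with the Mixed samples alone (adjusted p = 0.0501) and with the acinar score in the model (adjusted p = 0.0744). Slc2a3, which encodes GLUT3, had 1.75, 2.47, 1.37 and 3.28 TPM in the same order, and rose by 0.85 in Mixed (adjusted p = 0.000139), where its Het and WT values did not overlap. Slc2a5, the fructose transporter GLUT5, had 200.5, 175, 177 and 165 TPM, and fell by 0.20 in C57 (adjusted p = 0.0217), a call lost without C57 Het replicate 3 (adjusted p = 0.0538) and with the acinar score in the model (adjusted p = 0.0583). Slc2a2 supplied 96.8% to 97.7% of the summed TPM of Slc2a1, Slc2a2 and Slc2a3 in C57 WT animals and 96.3% to 97.4% in C57 Het. It supplied 94.1% to 97.1% in Mixed WT and 91.6% to 95.5% in Mixed Het. Het and WT shares overlapped on both backgrounds, and Slc2a5 was left out of this sum. The ratio of Slc2a2 to Slc2a1 within a sample, which does not depend on the library total, was 17.1 to 37.3 in Mixed WT and 13.9 to 29.1 in Mixed Het. These groups overlapped, and the two-sided exact permutation test over the 462 regroupings gave p = 0.0455, which became 0.0682 after Benjamini-Hochberg adjustment over the 12 ratio tests. The ratio without Mixed Het replicate 4 differed by -0.71 on the log2 scale, with an adjusted exact p of 0.0272.

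G6pc2 opposes the first step of glycolysis, and it was the most abundant of the 8. The C57 WT animals fell apart, with 1509.6 and 1631 TPM in 2 of them and 2477, 2559 and 2688 TPM in the other 3. C57 Het had 2058 TPM at the lowest, 2859 at the median and 3200.2 at the highest. Mixed WT had 2633, 2753, 3424, 3502 and 3642 TPM, and Mixed Het ran from 2754 through a median of 2972 to 3288 TPM. Het and WT overlapped on both backgrounds. In C57 the log2 change of 0.38 ± 0.15 (SE) had an adjusted p of 0.0459, a call that rested on its margin. It was lost under 7 of the 10 alternatives (adjusted p up to 0.186) and on leaving out 12 of the 22 libraries in turn. Those 12 were C57 WT replicates 1 and 5, C57 Het replicates 1, 2, 5 and 6, and each of the 6 Mixed Het animals. Without C57 WT replicate 1, the lowest animal, the change was 0.26 (adjusted p = 0.163). In Mixed it was -0.08 (interval -0.39 to 0.23, adjusted p = 0.698), and the interaction of -0.46 did not pass (adjusted p = 0.168).

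The relatives of G6pc2 were lower in level. G6pc, the phosphatase of liver and kidney, did not pass the filter and was at most 0.13 TPM in any animal, listed at 0 in some. G6pc3, the broadly expressed form, had group means of 46.3, 43.8, 40.8 and 51.0 TPM, rose by 0.32 in Mixed (adjusted p = 0.00138) and had an interaction of 0.39 (adjusted p = 0.0248). Slc37a4, the transporter that brings glucose-6-phosphate to these enzymes, fell by 0.41 in C57 (adjusted p = 0.00808) and changed by -0.33 in Mixed (adjusted p = 0.0273). The Mixed call was lost without Mixed WT replicate 1 or 5 or Mixed Het replicate 1, 2, 5 or 6 (adjusted p of 0.0527 to 0.0717) and with no filter (adjusted p = 0.0538). G6pc2 supplied 96.9% to 98.9% of the summed TPM of the 3 phosphatases in every animal. The ratio of G6pc2 to Slc2a2 rose in Mixed, from 8.11 to 10.3 in the WT animals to 10.8 to 20.7 in Het, with a median of 17.2. That is 1.80-fold higher by the geometric means, with no overlap, an exact p of 0.00433 and an adjusted p of 0.0104. In Mixed the log2 change was -0.92 for Slc2a2 and -0.08 for G6pc2, so this ratio largely repeats the Slc2a2 result. In C57 the ratio was 4.92 to 7.78 in WT and 6.58 to 9.41 in Het, 1.23-fold higher with overlapping groups (exact p = 0.0519, adjusted p = 0.0693). Leaving out C57 WT replicate 4 or C57 Het replicate 4 brought that adjusted exact p to 0.049 or 0.0297.

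Pcx, which makes oxaloacetate from pyruvate and so refills the citric acid cycle, was lower in Het on both backgrounds. The C57 WT animals had 72.7, 72.9, 84.9, 87.4 and 89.6 TPM, and C57 Het ran from 52.1 through a median of 60.01 to 65.7 TPM. The Mixed WT animals had 75.7, 75.9, 84.6, 93.9 and 99.4 TPM, and Mixed Het ran from 28.4 through a median of 35.3 to 44.5 TPM. No Het animal reached the lowest WT animal of its background. Mixed Het also lay wholly below C57 Het, while the 2 WT groups overlapped. The mean of Het was 73.9% of WT in C57, and the log2 difference was -0.43 (SE 0.10, adjusted p = 0.00271). It was 41.2% of WT in Mixed, with a log2 difference of -1.26 (SE 0.10, adjusted p = 6.48e-09). The difference between them, -0.83 (interval -1.14 to -0.53, adjusted p = 0.00301), kept its direction and passed in all 9 alternatives and all 22 fits without 1 library.

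Glud1, which links glutamate to 2-oxoglutarate of the cycle and is known for activating mutations that cause excess insulin release, moved the other way. The C57 WT animals had 52.1, 55.9, 64.6, 68.8 and 72.4 TPM, and C57 Het had 86.4 TPM at the lowest, 103 at the median and 116 at the highest. The Mixed WT animals had 56.96, 57.3, 63.3, 64.9 and 72.5 TPM, and Mixed Het had 88.9 TPM at the lowest, 96.3 at the median and 118 at the highest. The highest WT animal lay below the lowest Het animal on both backgrounds. Het reached 165% of the WT mean in C57 (log2 change 0.72 ± 0.10 SE, adjusted p = 9.98e-06) and 156% in Mixed (0.63 ± 0.10 SE, adjusted p = 2.07e-05). The interaction was -0.09 with an interval of -0.37 to 0.20 (adjusted p = 0.723). Both genotype calls were kept under all 10 alternatives, with log2 changes of 0.60 to 0.73 in C57 and 0.50 to 0.64 in Mixed.

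The ratio of Pcx to Glud1 joins these 2 mitochondrial enzymes within each sample. It was 1.13, 1.23, 1.24, 1.40 and 1.56 in C57 WT and 0.520 to 0.671 in C57 Het, with a median of 0.577. In Mixed WT it was 1.17, 1.32, 1.33, 1.48 and 1.53, and in Mixed Het 0.252 to 0.500, with a median of 0.376. Every WT animal thus had more Pcx than Glud1 by TPM, and every Het animal had less. WT exceeded Het 2.24-fold in C57 and 3.81-fold in Mixed. Both comparisons gave an exact p of 0.00216, the smallest that 462 regroupings allow, and an adjusted p of 0.00649. On each background every Het animal had less Pcx and more Glud1 than every WT animal. The ratio had to separate for that reason, so these p-values add nothing to the results of the 2 genes.

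**Figure D3:**
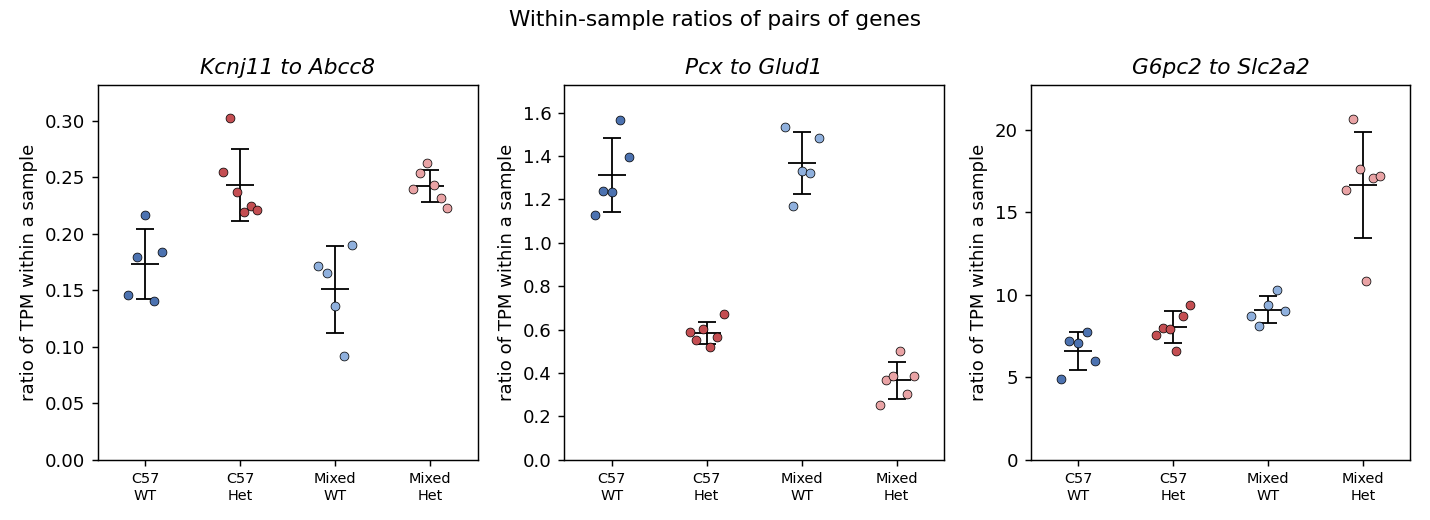
Ratio of TPM within each sample (points, 1 per mouse) for Kcnj11 to Abcc8, Pcx to Glud1 and G6pc2 to Slc2a2, by group, with the mean and SD of the ratios (bars) and axes from 0. Het and WT do not overlap for the first pair (0.219 to 0.302 against 0.141 to 0.217 in C57) or the second on either background, and for the third they are separate in Mixed alone.

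Gpd2, the shuttle enzyme, set the backgrounds apart more than the genotypes. The C57 WT animals had 34.6, 35.8, 42.8, 43.6 and 47.4 TPM, and C57 Het ran from 42.6 through a median of 49.3 to 52.8 TPM. The Mixed WT animals had 28.7, 29.9, 31.5, 32.0 and 33.9 TPM, and Mixed Het ran from 22.7 through a median of 25.6 to 41.3 TPM. Het and WT overlapped on both backgrounds, and the highest Mixed Het animal, replicate 4, stood above every Mixed WT animal. The log2 change was 0.25 in C57 (interval 0.00 to 0.49, adjusted p = 0.101) and -0.16 in Mixed (interval -0.41 to 0.08, adjusted p = 0.27), and neither passed. With all animals it passed in Mixed under median-of-ratios scaling (-0.29, adjusted p = 0.0388) and with a library total that left out the most abundant genes (-0.28, adjusted p = 0.0488). Without Mixed Het replicate 4 the change in Mixed became -0.28 (adjusted p = 0.0218), that in C57 passed at 0.25 (adjusted p = 0.0332) and the interaction passed at -0.52 (adjusted p = 0.0191), where it had been -0.41 (adjusted p = 0.123). The same animal had the highest Slc2a2, Pcx and Mafa values of its group, the highest beta marker sum (340935 TPM) and the lowest alpha marker sum (65336 TPM), and the part of these in its Gpd2 level was not tested.

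Gpd1, the cytosolic partner of Gpd2 in the shuttle, had group means of 31.7, 34.8, 31.4 and 40.2 TPM and rose by 0.35 in Mixed (adjusted p = 0.00212). Gpd1l, its close relative, had 11.4, 15.9, 12.7 and 15.0 TPM and rose by 0.45 in C57 (adjusted p = 0.00125). Gpd2 was 46.7% to 51.4% of the summed TPM of Gpd2 and Gpd1 in Mixed WT and 33.3% to 53.9% in Mixed Het. The ratio of Gpd2 to Gpd1 did not pass in either background (adjusted exact p = 0.561 in C57 and 0.0594 in Mixed). In Mixed it passed without Mixed Het replicate 4, at -0.68 on the log2 scale (adjusted exact p = 0.0159).

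Pfkm, a committed step of glycolysis, was the steadiest of the 8. The C57 WT animals had 60.4, 62.3, 63.1, 66.2 and 70.3 TPM, and C57 Het ran from 59.4 through a median of 66.5 to 68.4 TPM. The Mixed WT animals had 59.2, 59.3, 61.8, 62.7 and 65.9 TPM, and Mixed Het ran from 61.9 through a median of 63.9 to 71.4 TPM. All 4 groups overlapped. The log2 change was 0.02 in C57 (interval -0.09 to 0.14) and 0.06 in Mixed (interval -0.05 to 0.18), and its sign turned on both backgrounds under the 3 other scalings. The SD of log2(TPM + 1) over the 22 samples was 0.0753 for Pfkm, against 0.283 to 0.544 for the other 7 genes. Pfkm supplied 66.5% to 71.3% of the phosphofructokinase TPM in C57 and 64.4% to 70.4% in Mixed. Its liver-type partner Pfkl changed by 0.21 in Mixed (adjusted p = 0.0288), and its platelet-type partner Pfkp by 0.37 (adjusted p = 0.018). Neither call held under the 3 other scalings, where Pfkl changed by 0.083 to 0.11 and Pfkp by 0.25 to 0.29. Both were lost with the Mixed samples alone (adjusted p = 0.0581 for Pfkl and 0.0601 for Pfkp), and Pfkl with the acinar score (adjusted p = 0.0904) and with sample weights (0.14, adjusted p = 0.118). The Pfkl call was also lost without Mixed WT replicate 1, 4 or 5 or Mixed Het replicate 1 (adjusted p of 0.0598 to 0.0755), and the Pfkp call without Mixed WT replicate 1, 2 or 5 (adjusted p of 0.0506 to 0.0654). The ratio of Pfkm to the sum of both was 1.98 to 2.37 in Mixed WT and 1.81 to 2.10 in Mixed Het, 0.875 times as high (exact p = 0.0173, adjusted p = 0.0346). That call was lost on leaving out Mixed WT replicate 1, 4 or 5 or Mixed Het replicate 1, 2, 3 or 5 (adjusted exact p of 0.0571 to 0.0794). In C57 it did not pass (adjusted exact p = 0.21).

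The KATP channel is an octamer of equal numbers of pore and regulatory subunits, and the RefSeq table of GRCm38.p6 places their genes next to each other on chromosome 7. Kcnj11, the pore, had 80.5, 91.5, 96.9, 109 and 112 TPM in C57 WT, and C57 Het ran from 104 through a median of 116 to 124 TPM. It had 62.0, 62.4, 83.4, 96.9 and 97.2 TPM in Mixed WT, and Mixed Het ran from 78.3 through a median of 93.6 to 124 TPM. Het overlapped WT on both backgrounds. The log2 change was 0.25 in C57 (interval -0.01 to 0.51, adjusted p = 0.117) and 0.28 in Mixed (interval 0.02 to 0.54, adjusted p = 0.0712), and neither passed. With the C57 samples fitted alone, the C57 difference passed (adjusted p = 0.0373). In Mixed it passed on leaving out Mixed WT replicate 1 (0.36, adjusted p = 0.0298), Mixed WT replicate 5 (0.36, adjusted p = 0.0281) or Mixed Het replicate 6 (0.34, adjusted p = 0.036).

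Abcc8, the sulfonylurea receptor, had 438, 514, 539, 649 and 748 TPM in C57 WT, and C57 Het ran from 409.9 through a median of 498 to 527 TPM. It had 457, 505, 511, 565 and 682 TPM in Mixed WT, and Mixed Het ran from 338 through a median of 393 to 519 TPM. The groups overlapped on both backgrounds, with 5 of the 6 Mixed Het animals below every Mixed WT animal. Abcc8 fell in Mixed, by 0.44 on the log2 scale (SE 0.13, adjusted p = 0.0087), and this call was kept in all 10 alternatives and all 22 fits without 1 library. In C57 the log2 change of -0.24 did not pass (adjusted p = 0.143), and it passed under median-of-ratios scaling (-0.36, adjusted p = 0.00972) and when each library was scaled by a total that left out its most abundant transcripts (-0.36, adjusted p = 0.0187). The interaction was -0.20 (interval -0.58 to 0.18).

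Within each sample the balance of the channel genes shifted with genotype on both backgrounds. The ratio of Kcnj11 to Abcc8 was 0.141, 0.146, 0.180, 0.184 and 0.217 in C57 WT, and C57 Het ran from 0.219 through a median of 0.231 to 0.302. It was 0.0915, 0.136, 0.165, 0.172 and 0.190 in Mixed WT, and Mixed Het ran from 0.223 through a median of 0.242 to 0.263. The highest WT animal and the lowest Het animal lay close together in C57 and were further apart in Mixed. Het was 1.41-fold higher in C57 and 1.65-fold higher in Mixed (exact p = 0.00216 and adjusted p = 0.00649 on both), and both calls were kept without any 1 library. TPM of 2 genes compares transcripts per length, and the number of channel subunits was not measured.

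The cardiovascular-type KATP genes were near the bottom of the range. Kcnj8, the pore Kir6.1, had group means of 1.42, 0.999, 1.08 and 2.29 TPM, and Abcc9, the receptor SUR2, had 2.44, 2.54, 2.49 and 3.99 TPM. In Mixed, Kcnj8 changed by 0.62 and Abcc9 by 0.50 (adjusted p = 0.0408 each). Both calls were lost under 6 of the 9 alternatives that gave them a value, and each on leaving out 7 of the 22 libraries in turn. For Kcnj8 these were Mixed WT replicates 1, 3 and 4 and Mixed Het replicates 1, 2, 5 and 6 (adjusted p up to 0.113), and for Abcc9 Mixed WT replicates 1, 3, 4 and 5 and Mixed Het replicates 1, 2 and 5 (adjusted p up to 0.107). Of the mesenchymal marker genes 4 of the 5 tested rose in Mixed too, where 30.7% of all genes did. Their summed levels were 30.6 to 59.8 TPM in WT and 56.9 to 347 TPM in Het. The part of that in the Kcnj8 and Abcc9 values was not tested. Kcnj11 made up 94.7% to 99.6% of the summed TPM of the pores, and Abcc8 98.5% to 99.7% of that of the receptors, over all 22 animals.

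Between backgrounds within a genotype, the members differed mainly in Het. These contrasts share their samples with the genotype contrasts and are given side by side with them. Among WT animals 1 of the 8 passed (12.5%), against 11.3% of all genes, and that was G6pc2, higher in Mixed (as were 6.30% of all genes, while 4.99% were lower) by 0.58 on the log2 scale (adjusted p = 0.0168). Its groups overlapped, and the call was lost without C57 WT replicate 1 (0.46, adjusted p = 0.0546) or C57 WT replicate 5 (0.49, adjusted p = 0.0544). It was also lost with sample weights (0.37, adjusted p = 0.103), with the samples of the contrast alone (adjusted p = 0.112) and with no filter (adjusted p = 0.0556). Gpd2 was the 1 member whose WT groups did not overlap (6.12% of all genes), and its log2 difference of -0.37 missed the threshold (adjusted p = 0.0544). It passed without C57 WT replicate 1, C57 WT replicate 5, Mixed Het replicate 4 or Mixed Het replicate 5 (adjusted p of 0.0127 to 0.0493), under the 3 other scalings and with sample weights (adjusted p of 0.0181 to 0.0325). Among Het animals 3 of the 8 passed (37.5%), against 20.5% of all genes, all lower in Mixed (7.13% of all genes, while 13.3% were higher). They were Slc2a2 (-0.91, adjusted p = 2.06e-05), Gpd2 (-0.78, adjusted p = 5.9e-05) and Pcx (-0.76, adjusted p = 2.04e-05), and the groups of each did not overlap, as was so for 9.85% of all genes. The 2 channel genes differed by -0.27 each between the Het groups without passing (adjusted p = 0.122 for Kcnj11 and 0.128 for Abcc8). Both passed without Mixed Het replicate 1 (-0.34, adjusted p = 0.0452, and -0.35, adjusted p = 0.0463), under the 3 other scalings and with sample weights (-0.43 to -0.30, adjusted p of 0.00167 to 0.0495), and Kcnj11 also with the Het samples alone (adjusted p = 0.0474).

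The rest of the pathway was followed with 3 lists of 68 enzymes and carriers, of which 66 were tested. Most of their calls were upward on both backgrounds, as were 69.5% of the calls over all genes in each. In C57, 27 passed (26 higher, 1 lower), a share of 40.9% beside 38.0% of all genes, with a median log2 change of 0.21. In Mixed, 44 passed (38 higher, 6 lower), a share of 66.7% beside 44.1%, with a median of 0.33. The direction depended in part on scaling. With median-of-ratios scaling the split was 19 higher and 5 lower in C57 and 27 higher and 10 lower in Mixed. Over all genes the same change of scaling moved the split from 4422 higher and 1940 lower to 3293 and 3300 in C57, and from 5137 and 2258 to 3663 and 3751 in Mixed. It shifted the median log2 change of all genes in Mixed by -0.11. On both backgrounds 22 of the genes passed, all in the same direction, which is 81.5% of the C57 calls and 50.0% of the Mixed calls. The same overlap over all genes was not computed, so it cannot be read as a trait of these lists.

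Glucose uptake and glycolysis, the steps around Pfkm, gave 4 higher and 1 lower of 19 genes tested in C57 and 13 higher and 2 lower in Mixed. Its called share was 26.3% in C57 and 78.9% in Mixed, beside 38.0% and 44.1% of all genes. Of all genes, 26.4% were higher and 11.6% lower in C57, and 30.7% and 13.5% in Mixed. For 4 genes of this list the interaction was positive and passed, 21.1% of the list beside 4.62% of all genes. They included Eno1, an enolase (0.66, adjusted p = 0.0266, and 0.0591 with no filter), Gapdh, the glyceraldehyde phosphate dehydrogenase (0.47, adjusted p = 0.00559), and Tpi1, the triose phosphate isomerase (0.41, adjusted p = 0.0173). Eno1 had group means of 53.9 and 63.96 TPM in C57 WT and Het and of 31.3 and 59.0 TPM in Mixed WT and Het. Among WT animals Eno1 and Gapdh were lower in Mixed than in C57 (-0.78, adjusted p = 0.000386, and -0.39, adjusted p = 0.000767). Neither differed by call among Het animals (adjusted p = 0.488 and 0.364). Tpi1 was higher in Mixed among Het animals (0.35, adjusted p = 0.000777) and not called among WT animals (adjusted p = 0.65). The lactate dehydrogenase gene Ldhb, the 1 lower gene in C57, changed by -0.46 there (adjusted p = 0.0187, and 0.0673 without C57 WT replicate 1) and fell by 0.50 in Mixed (adjusted p = 0.0108). With the acinar score in the model the C57 value was -0.36 (adjusted p = 0.169).

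Pyruvate oxidation and the citric acid cycle, the route alternative to Pcx, gave 13 higher and 0 lower of 27 genes in C57 and 15 higher and 0 lower in Mixed. Its called share was 48.1% in C57 and 55.6% in Mixed, beside 38.0% and 44.1% of all genes. Of all genes, 26.4% were higher and 11.6% lower in C57, and 30.7% and 13.5% in Mixed. The split of this list alone under other scalings is not given here. Pdk4, a kinase that switches pyruvate dehydrogenase off, had the largest rise of the lists on both backgrounds, 1.36 in C57 (SE 0.33, adjusted p = 0.00314) and 2.25 in Mixed (SE 0.33, adjusted p = 1.54e-05). Its group means were 22.2 and 52.1 TPM in C57 WT and Het and 11.8 and 56.98 TPM in Mixed WT and Het, and Het and WT did not overlap on either background.

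Shuttles and anaplerotic export, the genes around Gpd2, Glud1 and the exit of citrate, gave 9 higher and 0 lower of 20 genes in C57 and 10 higher and 4 lower in Mixed. Its called share was 45% in C57 and 70% in Mixed, beside 38.0% and 44.1% of all genes. Of all genes, 26.4% were higher and 11.6% lower in C57, and 30.7% and 13.5% in Mixed. Me1, the cytosolic malic enzyme, rose by a similar amount on each background, 1.10 in C57 and 1.12 in Mixed (adjusted p = 4.34e-07 and 1.54e-07). In Mixed, Glul, the glutamine synthetase, fell by 0.90 (adjusted p = 9.17e-05), Acly, the ATP citrate lyase, by 0.42 (adjusted p = 0.00475) and Slc25a1, the mitochondrial citrate carrier, by 0.21 (adjusted p = 0.00384). Acly also had a negative interaction (-0.58, adjusted p = 0.0338), which was lost with no filter, with the acinar score and on leaving out any 1 of 11 libraries (adjusted p of 0.0517 to 0.0764 over these settings). The libraries were C57 WT replicates 1 and 5, C57 Het replicates 2, 4, 5 and 6, Mixed WT replicates 1, 2 and 3, and Mixed Het replicates 2 and 5.

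**Figure D4:**
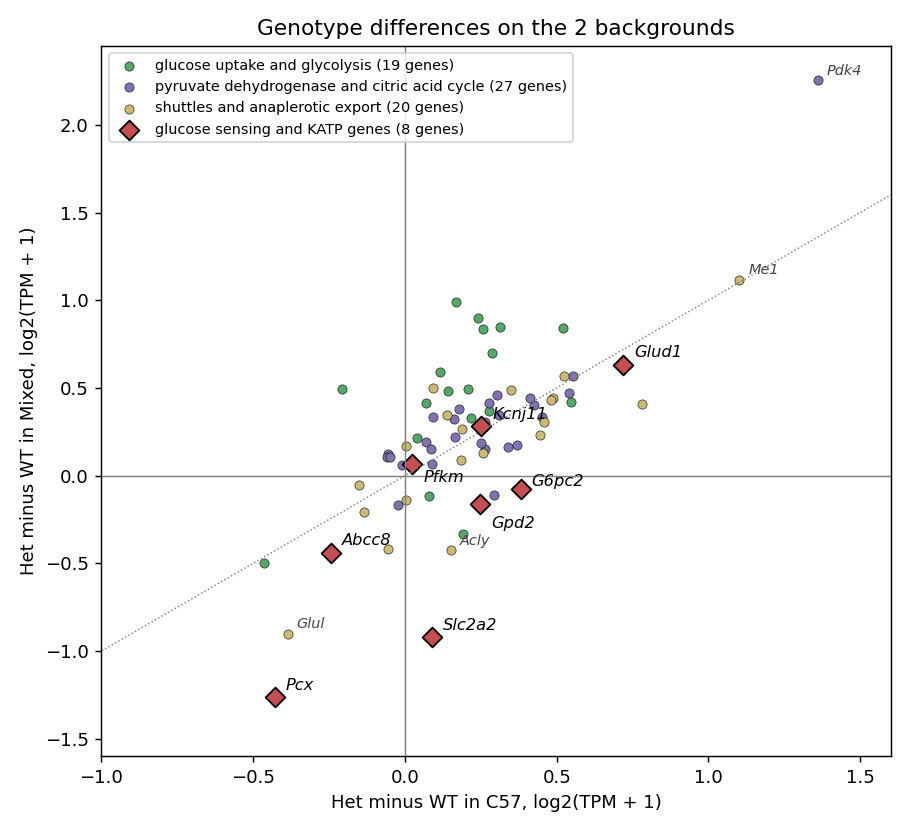
Genotype difference (Het minus WT, log2(TPM + 1)) in C57 on the horizontal axis and in Mixed on the vertical axis for the 8 members (diamonds) and the 66 tested genes of the pathway lists (circles, coloured by list); the dotted line marks equal differences. Slc2a2 lies at 0.09 and -0.92 and Pcx at -0.43 and -1.26, below the line, and Glud1 at 0.72 and 0.63 lies near it.

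Each member was set beside the genes whose log2 values followed it most closely, measured by the root mean square (RMS) difference of centred log2(TPM + 1) over the 22 samples. Those of Pcx were Frzb (RMS difference 0.178), Ucn3 (0.180) and Vstm2l (0.189), against an SD of 0.544 for Pcx itself. Ucn3 encodes urocortin 3, a peptide of mature beta cells, and its log2 change was -0.32 in C57, which did not pass (adjusted p = 0.0952), and -1.50 in Mixed, which did (adjusted p = 1.08e-07). Frzb and Vstm2l passed in C57 (-0.44, adjusted p = 0.00707, and -0.52, adjusted p = 0.00369) and in Mixed (-1.13 and -1.32). The interaction was negative and passed for Frzb (-0.69, adjusted p = 0.0217), Ucn3 (-1.18, adjusted p = 0.00342) and Vstm2l (-0.80, adjusted p = 0.0126). Those of Slc2a2 were Slc6a19 (0.191), Cln6 (0.198) and Gjd2 (0.203), against an SD of 0.450. The interaction was negative and passed for Slc6a19 (-0.83, adjusted p = 0.00731) and Cln6 (-0.53, adjusted p = 0.0248). For Gjd2 it did not pass (-0.53, adjusted p = 0.0714). All of these genes were picked for likeness over the same samples, so a shared interaction is in part built in. Gjd2 encodes connexin 36, the gap junction protein that couples beta cells, and changed by -0.26 in C57 (adjusted p = 0.104) and fell by 0.79 in Mixed (adjusted p = 3.65e-05). Under the 3 other scalings Ucn3 and Gjd2 also passed in C57, with -0.44 to -0.42 for Ucn3 and -0.38 to -0.34 for Gjd2. Both passed there with sample weights too, Ucn3 also with the C57 samples alone or without Mixed Het replicate 4 (adjusted p = 0.0415), and Gjd2 without C57 WT replicate 1 or 5 (adjusted p = 0.0427 and 0.0435). For Glud1 they were Diaph1 (0.0831), Btbd1 (0.0875) and Tab2 (0.0997), against an SD of 0.377. The closest to Gpd2 were Asah2, Svip and Abcc4 (0.164 to 0.172), and to G6pc2 Cldnd1, Srpr and C2cd2l (0.178 to 0.183). Kcnj11 was closest to Pgpep1, Ppp1r26 and Zadh2 (0.113 to 0.129), Abcc8 to Agbl5, Tex9 and Ankrd16 (0.111 to 0.118), and Pfkm to Osbpl9, Tada3 and Phf14 (0.0528 to 0.0590). For Pfkm the RMS difference was nearly as large as its own SD of 0.0753, so that likeness says little.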

How the data were processed

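Isolated islets of 22 male mice were measured by poly(A) RNA sequencing with paired reads of 150 bp, per the labels' protocols. The authors deposited 1 table of TPM for 57010 gene IDs, per the file headers. STAR 2.7.10b, MultiQC 1.7 and the mouse build mm39 are named per the submitters' processing notes, and the tool that made the TPM is not given in the sources used here. TPM keeps no depth, so depth is unknown and no interval or floor from counts was computed. Genes reaching 1 TPM in 5 or more samples (16756) were kept, and log2(TPM + 1) was fitted with limma 3.58.1 in R 4.3.3 (4 group means, eBayes with trend, Benjamini-Hochberg adjustment over all genes, threshold 0.05). Fold changes on this scale understate those of low genes. Every adjusted p of a gene is from that fit, unless an alternative setting or a left-out library is named with it. Ratios were tested by two-sided exact permutation. Scripts were tested on simulated data. The members and lists were chosen with earlier results of these data known, so the counts over them are descriptions. Named genes were all members, Mafa, the paralogues of members, up to 3 pathway genes each way per contrast with an adjusted p under 0.05 and separate groups, and the 3 genes most like each member. Ldhb, the values of the genes most like Pcx and Slc2a2, and the genes of calls at 1 were named after their values were seen. Group came from the genotype label, and replicate numbers were given in accession order. Promoter windows are from RefSeq (GRCm38.p6). Some genes of the pathway and marker lists are not reported here. Alternatives were another pseudocount (0.1), 2 other filters, 3 other scalings, fits on the contrast's samples alone, an acinar score as covariate, no trend, sample weights and leaving out each library.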

Additional observations from a re-analysis of the deposited data

Results flagged for a closer look

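In 32 sets of values (8 genes in 4 groups), the highest or lowest animal was compared with the rest of its group, and chance alone sets such an animal apart in about 1 of 20 groups. Slc2a2 in Mixed Het replicate 4, at 277 TPM, stood apart from the other 5 animals of its group. On the scale of log2(TPM + 1), its gap to the next was 0.727 of the range (limit 0.625). Pfkm in Mixed Het replicate 1, at 71.4 TPM, stood apart likewise, with a gap of 0.765 of the range on the same scale. The genotype difference of Slc2a2 differed between backgrounds by -1.01 on the log2 scale, and that of Pcx by -0.83, each by the interaction term of the limma fit (adjusted p = 0.0027 and 0.00301).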

How the results depend on the processing

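No paired analysis was possible because the labels give no replicate numbers that groups share. Members called ranged from 2 to 3 in C57, 4 to 5 in Mixed and 2 to 2 for the interaction over the alternatives, and from 2 to 3, 4 to 5 and 2 to 3 on leaving out 1 library. Over all genes these were 3532 to 6809, 5191 to 8148 and 714 to 2628 over the alternatives, of 10658 to 37378 genes tested. For Mixed against C57 in WT, 0 members were called without a filter and with the contrast's samples alone, 2 under each of the 3 other scalings, and 1 to 2 on leaving out 1 library (main count 1). In Het, 5 were called under the 3 other scalings and with sample weights, and 3 to 5 on leaving out 1 library (main count 3). Calls over all genes moved as well. Between WT groups they numbered 1892 in the main fit, 831 with the contrast's samples alone and 2427 to 2627 under the 3 scalings. Without a filter they were 1741 of 37378 genes. Between Het groups they numbered 3428 in the main fit, 3807 to 3969 under the 3 scalings and 6572 with sample weights. Pathway genes with an interaction numbered 12 with sample weights against 6, and over all genes the interaction passed for 2628 against 1233. Signs turned for values that never passed. Under median-of-ratios scaling, the total without abundant genes and quantile normalization, in that order, Slc2a2 in C57 was -0.030, -0.025 and -0.023, Pfkm in C57 -0.093, -0.087 and -0.078, Pfkm in Mixed -0.069, -0.058 and -0.024, and Glud1 between WT groups -0.0020, -0.035 and -0.048. Glud1 between WT groups was -0.022 with the acinar score and -0.012 with sample weights, and with these weights the interactions of Pfkm and Kcnj11 were -0.0046 and -0.034. On leaving out 1 library, the Kcnj11 interaction ran from -0.054 to 0.11, Glud1 between WT groups from -0.053 to 0.063, Abcc8 between WT groups from -0.17 to 0.024, and the log2 ratio of Gpd2 to Gpd1 in C57 from -0.029 to 0.18. The cause of these changes was not tested. The number of reads behind each TPM is unknown, which limits what low genes such as G6pc and Kcnj8 can show.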
